A study of Mus musculus with 5 samples.

Results

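Of 68846 merged DNaseI hypersensitive regions found over 5 stages of blood development, 2823 were listed as open in mesoderm (MES) and in no later stage. That was 4.1% of all regions (95% Wilson interval 3.95 to 4.25%) and 12.9% (12.4 to 13.3%) of the 21943 regions open in MES. The members were selected on the site lists themselves. Each site was replaced by 500 bp centred on it, such windows were chained into 1 region wherever they shared at least 25% of their length, and a region was kept if it held a MES window and no window of another stage. Each of the 2823 members held 1 MES site. The lists came from DNaseI-seq, which maps chromatin open enough to be cut by the nuclease DNase I, on cells differentiated in vitro from mouse ES (embryonic stem) cells, a single strain 129 line that carries GFP as a reporter of Brachyury (Bry). MES cells were sorted as Bry:GFP+ and Flk1-, hemangioblasts (HB) as Bry:GFP+ and Flk1+, hemogenic endothelium (HE) as Tie2+, cKit+ and CD41-, hematopoietic progenitors (HP) as CD41+ and macrophages (MAC) as CD11b+. There was 1 list per stage (the MAC label names a pair of replicates behind its list), so no replicate error could be given, and all intervals below cover counting error over regions only. ES cells were not analysed here, so a member may also be open before mesoderm. A stage in which a region is not open is one in which no site was listed there. The promoter of T, the gene of Brachyury, had a site in MES and HB, Itgam had one in MAC only, and Kdr, the gene of the sorting marker Flk1, had one in all 5 lists.

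Mesoderm forms at gastrulation, when epiblast cells pass through the primitive streak, lose their epithelial junctions and begin to migrate. Open elements of the epiblast are typically bound by POU factors such as OCT4 together with SOX factors and by ZIC and OTX2, those of the streak by T-box and LEF/TCF factors, and those of the later blood lineage by GATA, RUNX, ETS and AP1 factors. Repressors of the Snail and Zeb families, which switch off epithelial genes in migrating cells, bind the E-box CACCTG, which E proteins can also bind.

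The stretches of members below are shown because they hold the motifs on which the sequence results turn. They are 160 bp long, were read from the + strand of GRCm38 (RefSeq assembly GRCm38.p6) and lie outside the exons of curated mRNAs. Distances run from the transcription start site (TSS) of the named gene to the middle of the member. Capitals mark exact matches, on either strand, to the octamer ATTTGCAT, the SOX-OCT composite TTGTNATGC, the ZIC motif CCTGCTGNG, the T-box motif TCACACCT, the E-box CACCTG and a longer consensus of the insulator protein CTCF. The Zic5 and Sox4 members were taken by the rule for named genes, and the other 8 were chosen after their matches were seen.
Zic5 +49.2 kb, chr14:122416401-122416560: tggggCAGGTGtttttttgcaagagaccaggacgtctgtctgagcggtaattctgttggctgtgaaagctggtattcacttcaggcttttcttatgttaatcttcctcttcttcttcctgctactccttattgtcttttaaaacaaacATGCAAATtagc
Sox4 -27.2 kb, chr13:28980804-28980963: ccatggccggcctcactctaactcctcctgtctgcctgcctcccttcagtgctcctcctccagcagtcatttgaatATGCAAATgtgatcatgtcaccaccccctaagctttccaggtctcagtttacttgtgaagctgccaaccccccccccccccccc
Tcf7 -3.60 kb, chr11:52286488-52286647: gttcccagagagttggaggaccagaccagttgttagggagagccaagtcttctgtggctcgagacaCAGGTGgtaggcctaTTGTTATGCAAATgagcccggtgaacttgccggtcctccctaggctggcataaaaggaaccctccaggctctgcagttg
Esrp1 -2.79 kb, chr4:11389530-11389689: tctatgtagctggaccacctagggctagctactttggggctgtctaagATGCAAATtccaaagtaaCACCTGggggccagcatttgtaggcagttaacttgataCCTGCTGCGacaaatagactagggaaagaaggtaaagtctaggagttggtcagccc
Crb2 -8.86 kb, chr2:37767387-37767546: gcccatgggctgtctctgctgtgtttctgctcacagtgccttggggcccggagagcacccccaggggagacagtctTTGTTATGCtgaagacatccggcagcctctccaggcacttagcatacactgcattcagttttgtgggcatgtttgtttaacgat
Crb2 +5.59 kb, chr2:37781641-37781800: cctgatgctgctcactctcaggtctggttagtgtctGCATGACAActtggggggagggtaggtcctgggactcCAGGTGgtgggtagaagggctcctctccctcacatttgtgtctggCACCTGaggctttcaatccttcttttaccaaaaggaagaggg
Grhl2 -97.1 kb, chr15:37135804-37135963: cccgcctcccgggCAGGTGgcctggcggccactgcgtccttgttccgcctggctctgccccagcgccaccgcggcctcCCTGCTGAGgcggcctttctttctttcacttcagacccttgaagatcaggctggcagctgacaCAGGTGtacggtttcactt
Krt8 -132 bp, chr15:102004371-102004530: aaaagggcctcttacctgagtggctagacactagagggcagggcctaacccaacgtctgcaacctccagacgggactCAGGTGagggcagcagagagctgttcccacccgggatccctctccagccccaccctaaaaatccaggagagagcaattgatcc
Cer1 -17 bp, chr4:82885152-82885311: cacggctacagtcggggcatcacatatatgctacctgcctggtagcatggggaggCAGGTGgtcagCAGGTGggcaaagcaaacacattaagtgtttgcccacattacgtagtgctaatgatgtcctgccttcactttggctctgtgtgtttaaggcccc
Fgf3 +7.77 kb, chr7:144846326-144846485: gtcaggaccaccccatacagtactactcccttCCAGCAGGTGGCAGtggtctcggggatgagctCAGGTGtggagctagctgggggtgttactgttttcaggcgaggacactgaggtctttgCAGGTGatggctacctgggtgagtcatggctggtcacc
In the Tcf7 member a composite ran into an octamer, so that both share bases, and the Esrp1 member held an octamer, a ZIC match and an E-box within 1 stretch. The Fgf3 member held 3 E-boxes, 1 of them inside its CTCF match. No T-box match fell in these 10 stretches.

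The MES sites of the members were narrow, a property of the same list that selected them and therefore given as a description. DFilter, the site caller of the study, works in bins of 100 bp, so widths are multiples of 100 bp. The median width was 400 bp (interquartile range 300 to 500 bp, range 100 to 1900 bp). In the 3250 regions open in MES and HB only it was 600 bp (400 to 800 bp), and in the 19120 regions open in MES and at least 1 other stage it was 800 bp (600 to 1100 bp). MES sites of up to 300 bp made up 32.2% of the members, 13.6% of the MES and HB regions and 7.27% of the shared regions. Sites of at least 1000 bp numbered 60 among the members (2.13%), against 37.3% of those in shared regions. Over whole lists the median ran from 600 bp (MAC) to 1200 bp (HE).

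Some members were close to the edge of the rule. The window of 150 members (5.31%) shared some bases, under the limit, with a window of another stage, and that of the other 2673 shared none. Just inside the limit lay a member at Hs3st2, a heparan sulfate sulfotransferase gene, which shared 122 bp with an HB window, and members nearest to Dusp4, Nfix and Marveld3, which shared 121 bp with HE windows. Just outside lay a region at Syne3 and 1 that lay 138 kb from the Vrk1 TSS, whose MES and HE windows shared exactly the limiting 25%, regions nearest to Cd33 and Phlda2, whose MES and HB windows shared 128 bp, and 1 nearest to Zfp423, whose MES and HE windows shared 129 bp. In all, 311 regions outside held 1 MES window that passed the limit but shared less than 250 bp with any other stage. Judged by the deposited intervals, which are mostly wider than the windows, 2476 members (87.7%) were overlapped by no site of another stage. An HE interval overlapped 250 members, an HB interval 179, a MAC interval 40 and an HP interval 35, and 115 members were overlapped by at least 2 stages. Members lay at a median of 5969 bp from the nearest region open in another stage (interquartile range 2218 to 15775 bp), and 14.9% lay within 1 kb of one. Among themselves they were scattered, with a median of 332550 bp between neighbours and 4.17% of neighbours within 10 kb.

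Members lay mainly away from promoters. By the distance from their middle to the nearest protein-coding TSS, 456 of 2823 (16.2%, 14.8 to 17.6%) were promoter regions within 2 kb, 1031 (36.5%, 34.8 to 38.3%) were proximal, up to 20 kb, and 1336 (47.3%, 45.5 to 49.2%) were distal. Promoters made up 24.0% of all regions and 57.7% of the regions that MES shared with another stage. The promoter share of the members minus that of all other regions was -8.14 percentage points (95% Newcombe interval -9.50 to -6.70). The difference was -3.17 points (-5.08 to -1.24) against MES and HB regions and 4.53 points (2.86 to 6.24) against the 3890 HB-only regions. The proximal share was higher than in all 3 of these sets, by 6.17 (4.38 to 8.0), 4.12 (1.73 to 6.52) and 4.82 points (2.53 to 7.13). The middle of a member fell in an intron in 37.4%, in a coding exon in 4.29% and in an untranslated exon in 5.35%, and between genes in 52.9%.

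The sequence of the members was of middling GC content. The median GC share of the central 500 bp was 51.6% (interquartile range 47.4 to 56.0%), against 53.4% in MES and HB regions, 50.6% in HB-only regions and 59.6% in regions MES shared with any other stage. A region was called CpG-rich, as most constitutive promoters are, where G and C made up at least 0.5 of its bases and CpG reached at least 0.6 of the number its composition predicts. This held for 11.2% of the members (10.1 to 12.4%), 15.3% of MES and HB regions, 7.40% of HB-only regions, 52.8% of shared MES regions and 18.2% of all regions. The difference was -4.07 points (-5.76 to -2.36) from MES and HB regions and 3.79 points (2.38 to 5.24) from HB-only regions. With only sites no narrower than their list's median, which left 680 members, 23.4% of them were CpG-rich and 27.5% were promoters, against 32.3% and 38.8% of the other regions. Among promoter members it held for 45.8% (41.3 to 50.4%), against 57.5% of MES and HB promoters and 44.0% of HB-only promoters, from which the difference was 1.81 points with an interval that includes 0 (-4.65 to 8.24). It held for 81.8% of the promoters that MES shared with any other stage, a difference of -35.9 points (-40.5 to -31.3). A small group of 100 members (3.54%, 2.92 to 4.29%) had most of their bases soft-masked as repeats in the reference, against 1.57% of MES and HB regions and 1.77% of HB-only regions. Of these 100, 42 had a GC share under 0.4 and 48 held TATATA, and 3 were promoters.

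Consensus motifs of 19 factors or factor families were looked for, on either strand, in the 2367 members over 2 kb from a TSS (500 bp around the middle of each), and likewise in 52345 regions of all kinds. An exact match is a description of the letters and not evidence of binding, and the intervals were not adjusted for the number of motifs. The octamer of OCT4 and other POU factors was in 136 members (5.75%, 4.88 to 6.76%). It was in 4.73% of MES and HB regions, 3.00% of HB-only regions and 2.68% of all regions. The members exceeded the other regions by 3.21 points (2.33 to 4.23) and the HB-only regions by 2.75 points (1.68 to 3.89), while the difference from MES and HB regions was 1.02 points with an interval that includes 0 (-0.22 to 2.27). The SOX-OCT composite was in 53 members (2.24%, 1.72 to 2.92%), against 1.45, 0.844 and 1.27% in the same 3 sets. It exceeded the MES and HB share by 0.79 points (0.0425 to 1.57). Both motifs were in 10 members (0.422%), which was not counted in other regions. The ZIC motif was in 363 members (15.3%, 13.9 to 16.8%) and in 7.16% of all regions. Members were 8.56 points (7.15 to 10.1) above the other regions and 4.63 points (2.87 to 6.44) above HB-only regions, and differed from MES and HB regions by -0.454 points (-2.46 to 1.57). Of the remaining motifs linked to pluripotency, SOX (CCATTGT) was in 6.51% of the members against 7.77% of all regions, the ESRRB motif (TCAAGGTCA) in 0.718% against 1.11%, and KLF (GGGNGTGG) in 22.0% against 18.5%. The KLF letters read backwards, which keep its base composition, were in 18.9% against 14.9%, and their difference from all other regions, 4.25 points (2.69 to 5.91), was no smaller than the 3.66 points (2.00 to 5.40) of the motif itself. KLF was less common in members than in MES and HB regions, by -7.05 points (-9.45 to -4.64), and so were its letters read backwards, by -6.24 points (-8.53 to -3.95). In the central 200 bp alone, a shorter span, the octamer was in 2.96% and the composite in 1.23% of the members.

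The T-box, LEF/TCF and TEAD motifs of streak and mesoderm factors were less common in the members than in the regions open in MES and HB. The T-box motif TCACACCT, which Brachyury and EOMES bind, was in 104 members (4.39%, 3.64 to 5.30%), in 6.67% of MES and HB regions and in 6.78% of HB-only regions. The difference from MES and HB regions was -2.28 points (-3.55 to -1.01) and that from all other regions, of which 2.45% held it, was 1.94 points (1.18 to 2.86). The T-box letters read backwards differed from MES and HB regions by -1.01 points (-1.91 to -0.111). The LEF/TCF motif ATCAAAG, read by the effectors of WNT signalling, was in 8.66% of the members and 14.1% of MES and HB regions, a difference of -5.41 points (-7.16 to -3.66). Against the other regions its difference was 0.927 points, with an interval from -0.166 to 2.15. The TEAD motifs ACATTCC and GCATTCC were in 17.4% of the members, 20.8% of MES and HB regions and 24.7% of HB-only regions, differences of -3.42 (-5.59 to -1.24) and -7.30 points (-9.38 to -5.18), while the difference from all other regions, 0.945 points, had an interval that includes 0 (-0.564 to 2.56). The letters read backwards differed from MES and HB regions by -0.135 points (-1.25 to 0.99) for LEF/TCF and 0.766 points (-0.503 to 2.05) for TEAD. The OTX/GSC motifs TTAATCC and CTAATCC were in 12.7% of the members, 3.79 points (2.49 to 5.21) above the other regions, with a difference of -2.24 points (-4.15 to -0.319) from MES and HB regions. Their letters read backwards differed by 0.389 points (-0.652 to 1.56) from the other regions and by -3.05 points (-4.66 to -1.44) from MES and HB regions, so the latter difference was no larger than that of the reversed letters. FOXH1 (AATCCACA, which can overlap the OTX/GSC motifs and did so in 5 of 54 members) was in 2.28%, and CDX/HOX (CCATAAA) in 4.65%, with intervals against the other regions that include 0 (-0.336 to 0.902 and -1.67 to 0.0755).

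Motifs of blood factors were less common in the members than in the other regions. The motif AGATAA of GATA factors was in 429 members (18.1%, 16.6 to 19.7%), and its letters read backwards were in 17.6% of the same regions. It was in 25.4% of MES and HB regions, 41.8% of HB-only regions, 20.1% of the regions MES shared with any other stage and 27.3% of all regions. The difference was -1.96 points (-3.70 to -0.139) from the shared MES regions, -23.6 points (-25.9 to -21.4) from HB-only regions and -9.61 points (-11.2 to -7.96) from all other regions. PU.1 (GAGGAAGT) was in 3.51% of the members and 9.47% of all regions, AP1 (TGANTCA) in 15.0% and 27.2%, RUNX (TGTGGTT, or with C as its last base) in 16.6% and 22.5%, and CEBP (TTGCNNAA) in 17.7% and 22.8%. For these 4, the difference between members and MES and HB regions had an interval that includes 0 (-0.781 to 1.25, -1.70 to 2.26, -3.22 to 0.963 and -1.33 to 2.88 points). The differences of these 4 from all other regions were -6.24 (-6.96 to -5.38), -12.8 (-14.2 to -11.2), -6.19 (-7.68 to -4.60) and -5.28 points (-6.81 to -3.65). Read backwards, the differences from all other regions were 0.807 (0.0225 to 1.73), -3.58 (-4.78 to -2.25), -1.96 (-3.39 to -0.428) and -0.267 points (-1.10 to 0.704) in the same order. ETS (CCGGAAGT) was in 0.296% of the members, a difference of -0.655 points (-0.831 to -0.331). CTCF, by contrast, was in 158 members (6.68%, 5.74 to 7.75%), against 4.27% of MES and HB regions, 2.85% of HB-only regions, 3.01% of all regions and 9.13% of the regions MES shared with any other stage. The difference was 2.40 points (1.14 to 3.69) from MES and HB regions and -2.46 points (-3.60 to -1.22) from the shared regions. The CTCF share of members went with the width of the MES site, at 9.84% (7.94 to 12.1%) for sites of up to 300 bp, 5.79% (4.65 to 7.19%) for 400 to 600 bp and 2.12% (0.975 to 4.55%) for 700 bp or more. It was 4.26% among the members left with only sites no narrower than their list's median. In the central 200 bp, a shorter span, the GATA share of the members was 7.01%, that of T-box 2.11% and that of TEAD 9.51%, against 13.0, 0.986 and 7.74% of the other regions.

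**Figure D1:**
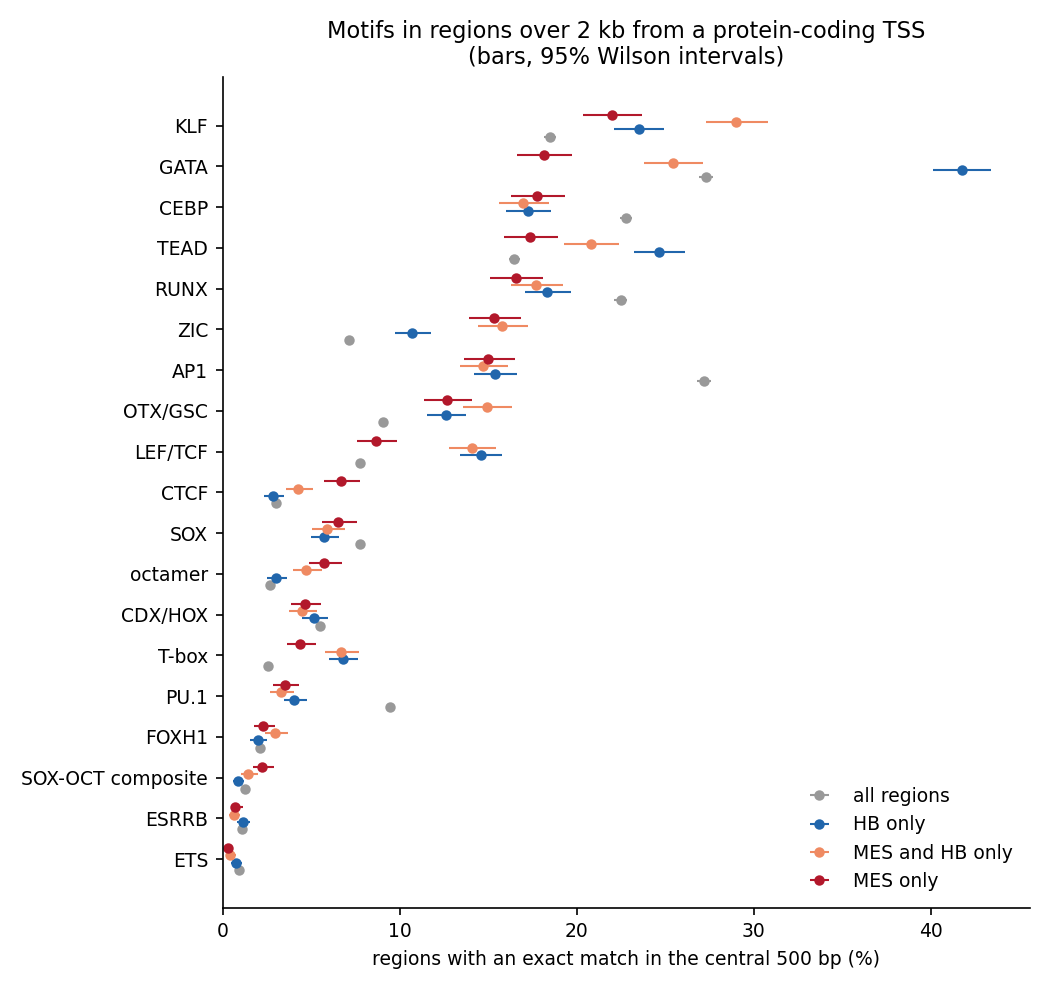
Percentage of regions, each over 2 kb from any protein-coding TSS, with an exact match to each of 19 motifs in the central 500 bp, as points with 95% Wilson intervals, for regions open in MES only, in MES and HB only, in HB only, and all regions. The members lie at 5.75% for the octamer against 2.68% of all regions, and at 18.1% for GATA against 41.8% of HB-only regions.

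A ranking of 17654 sequences of 8 bases, without any factor in mind, by the ratio of their share in members to that in all other regions over 2 kb from a TSS, put CACCTGCG at the head (in 43 members, 1.82%, a ratio of 3.57). Of the 10 sequences with the highest ratio, 7 had A or T at 7 or 8 of their places, with ATTATATA at a ratio of 3.51, and 2 held ACCTG, the other being ACCTGGCG (3.06). Among the 40 highest, 22 were of the first kind and 12 held ACCTG. With regions of mostly soft-masked bases left out, ATTATATA went from 3.51% to 1.81% of the members while CACCTGCG went from 1.82% to 1.85%. The E-box CACCTG was therefore counted as well. It was chosen from this ranking of the same regions, so that its shares are a description. It was in 1124 of 2367 members (47.5%), 41.2% of MES and HB regions, 34.0% of HB-only regions, 36.3% of shared MES regions and 26.8% of all regions. Its letters read backwards were in 17.8% of the members and 17.7% of all regions. At least 2 E-boxes were in 15.3% of the members, 10.6% of MES and HB regions and 4.88% of all regions. Among promoters within 2 kb, 52.6% of the members, 48.6% of MES and HB regions and 31.2% of all regions held it. It overlapped the ZIC match in 55 of 363 members, the T-box match in 40 of 104 and the CTCF match in 26 of 158. In regions with none of these 3 motifs it was still in 44.4% of the members, 37.6% of MES and HB regions and 25.04% of all regions. The related E-box TACCTG was in 24.4% of the members, 21.2% of MES and HB regions, 18.9% of HB-only regions and 14.9% of all regions. Its difference from MES and HB regions was 3.21 points (0.884 to 5.55). For its letters read backwards, in 15.5% of the members and 16.1% of all regions, that difference was 2.27 points (0.322 to 4.22).

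The matches gathered at the middle of the members. Within 100 bp of the centre the octamer occurred at 165 matches per kb per 1000 members, against 57.0 at 900 to 1000 bp. ZIC went from 551 to 86.6, CTCF from 270.4 to 4.22 and the E-box CACCTG from 1675 to 796 over the same span. T-box went from 118 to 50.7 in members and from 193 to 55.3 in MES and HB regions, and the E-box started lower there, at 1175.

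**Figure D2:**
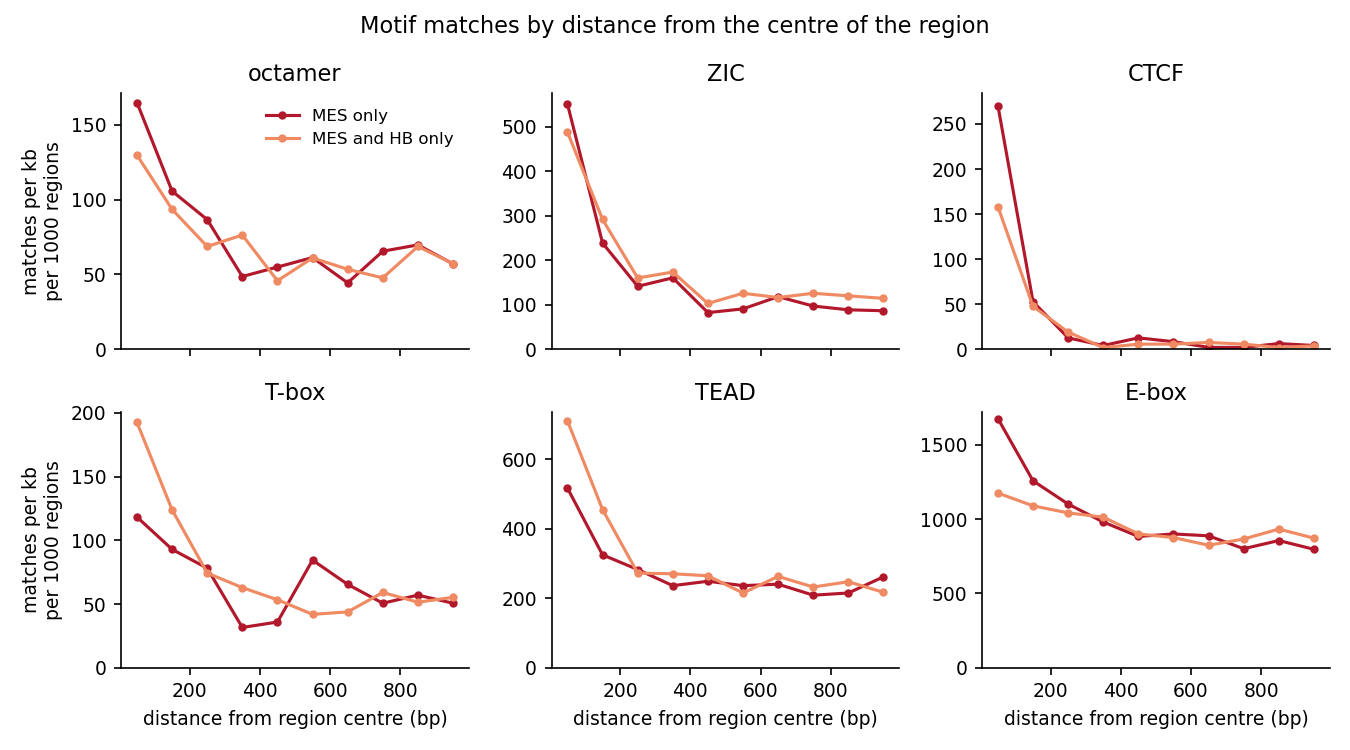
Matches per kb per 1000 regions (vertical axis, starting at 0) against the distance from the region's centre in steps of 100 bp, for 6 motifs in regions over 2 kb from a TSS, in members and in regions open in MES and HB only. Members start above MES and HB regions for CTCF and the E-box CACCTG, and below them for T-box and TEAD.

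Genes were linked to members by position alone, since the lists hold no expression. In all, 2402 members (85.1%) lay within 100 kb of a protein-coding TSS, and they were nearest to 2083 of 21000 genes, or 9.92% of them. Of these genes 1825 had 1 member, 210 had 2, 38 had 3 and 9 had 4, while Crb2, a Crumbs polarity protein needed by epiblast cells to leave the epithelium, had 7. The 7 Crb2 members ran from 15.5 kb upstream to 79.3 kb downstream of its TSS, with MES sites of 200, 600, 600, 700, 600, 400 and 500 bp in that order. The farthest 2 downstream, at 40.4 and 79.3 kb, lay in introns of the neighbouring gene Dennd1a. Of these, 5 held CACCTG and 2 a SOX-OCT composite, and HE intervals overlapped 2 of them and an HB interval 1. The other genes most often nearest, with 4 members each, were Plekhg3, a guanine nucleotide exchange factor, Dnah8, an axonemal dynein, Nfix, a nuclear factor I protein, Gse1, Lemd2, a protein of the inner nuclear membrane, Pax2, a paired box factor of the intermediate mesoderm, Grik3, a kainate receptor subunit, Grhl2, an activator of epithelial genes, and Engase. The 4 members assigned to Engase lay in introns of the neighbouring gene Rbfox3. No interval of another stage overlapped any of the 4 members of Dnah8, Gse1, Lemd2, Pax2 or Engase.

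For lists of genes by role, the background was 9.92% of all genes for being nearest to a member and 1.64% (344 genes) for a member within 1 kb of a TSS. The study points out that linking regions to genes depends on the size of intergenic spans. The shares of the lists were not adjusted for this. The lists were not counted for MES and HB or HB-only regions, so whether their shares are particular to members was not tested. Of 23 genes of naive and general pluripotency, 9 (39.1%) were nearest to a member and none had a member within 1 kb of a TSS. These were Pou5f1, the gene of OCT4, whose member of 600 bp site width lay 1.14 kb upstream, Sox2 (7.26 kb upstream, 300 bp), Esrrb, Klf5, Tbx3, Dppa5a, Sall4, Zfp296 and Tcl1. The members of Esrrb, Klf5, Tbx3, Sall4 and Tcl1, 5 of the 9, lay 32.0, 78.7, 38.9, 61.3 and 43.6 kb from the TSS. The Klf5 member lay in an intron of the neighbouring gene Pibf1 and the Zfp296 member in a coding exon of Clasrp. The Sox2 member was overlapped by an HE interval and the Pou5f1 member by none. Of this list only Pou5f1 had a promoter site in MES and in no other list. Of 16 genes of the formative epiblast, the state that follows naive pluripotency, 9 (56.3%) were nearest to 13 members in all. Of these 13 members, 7 lay over 20 kb from the TSS. Dnmt3a, a DNA methyltransferase, Zic5 and Sox4, transcription factors, and Etv5, an ETS factor induced by FGF, had 2 members each, and Pou3f1, Zic2, Sox11, Sall2 and Etv4 had 1. An Etv5 member 214 bp upstream, with a site of 400 bp that an HB interval overlapped, was the 1 member of this list within 1 kb of a TSS, and the Etv5 promoter had sites in all 5 lists. The octamers of the Zic5 and Sox4 members printed above belong to sites of 800 and 300 bp, neither overlapped by an interval of another stage. Both Zic5 members lay beyond its TSS, at 49.2 and 59.2 kb, and the Zic2 member at 6.03 kb.

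**Figure D3:**
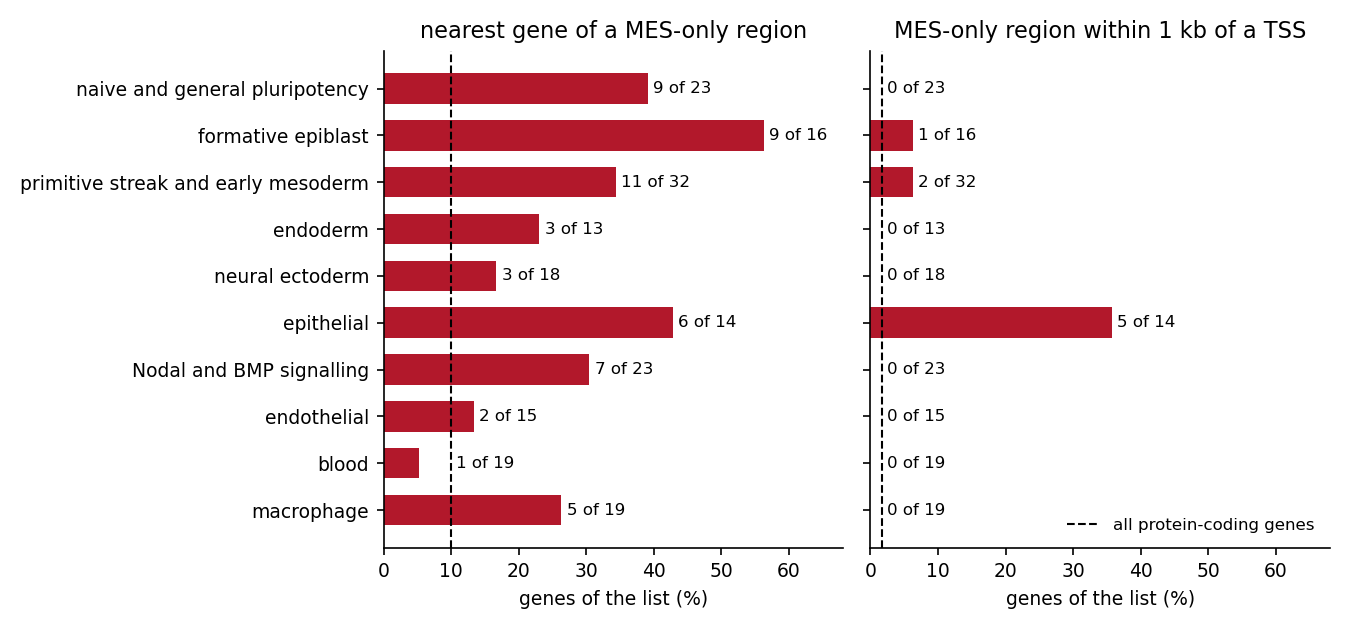
Percentage of the genes of each of 10 lists that were nearest to a member within 100 kb (left) or had a member within 1 kb of a TSS (right), with counts beside the bars and the share of all protein-coding genes as a dashed line (9.92% and 1.64%). The formative epiblast list has the longest bar on the left with 9 of 16, and the epithelial list on the right with 5 of 14.

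Genes of the primitive streak and early mesoderm were also near members, at 11 of 32 (34.4%) with 15 members. Gsc, a homeobox factor of the organizer, Fgf8, a growth factor of the streak, Wnt3, a ligand that starts streak formation, and Sp8, a zinc finger factor downstream of WNT, had 2 members each. Fgf3, Wnt3a, Nodal, Mesp1, Cdx1, Cer1 and Pdgfra had 1, and Cdx1 and Cer1, a caudal factor and a Nodal antagonist, had theirs within 1 kb of the TSS. The Cer1 member was overlapped by an HE interval and its promoter had sites in MES, HB and HE. Intervals of other stages overlapped 4 of the 15 members, the others being 1 at Sp8 and 1 at Wnt3 (HB and HE) and that at Mesp1 (HB). Within 50 kb of the Fgf8 TSS there were 10 merged regions, of which 7 were open in MES and 3 were members, at 6.70 kb upstream and 5.74 and 16.8 kb downstream. The 5.74 kb member lay in a coding exon of Fgf8, and the nearest regions to either side of it were open in MES and HB and in HE only. Around Cdx1, 3 of 10 regions were members, and its promoter had a site in MES and in no other list. The promoters of Fgf8 and Sp8 had a site in HE only, those of Nodal and Fgf3 in HB and HE, and that of Wnt3a in no list. Gsc, Wnt3, Mesp1 and Pdgfra, like Cdx1 and Cer1, had a promoter site in MES. Around Wnt3a, 2 of 7 regions were members, 3.07 and 12.4 kb upstream, while the HB-only region lay 17.3 kb and the HE-only region 15.5 kb upstream. Around Sp8, 2 of 8 regions were members, and the MES window at 2.24 kb, in a coding exon, lay beside an HE-only region at 2.71 kb. The Nodal member lay 1.86 kb upstream with a site of 300 bp. In the Nodal and BMP signalling list, 7 of 23 genes (30.4%) were nearest to 8 members and none had one within 1 kb of a TSS. Smad1, a BMP effector, had 2, at 13.1 and 43.2 kb within the gene, and Nodal, Bmp7, Smad2, Smad5, Id1 and Id2 had 1.

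**Figure D4:**
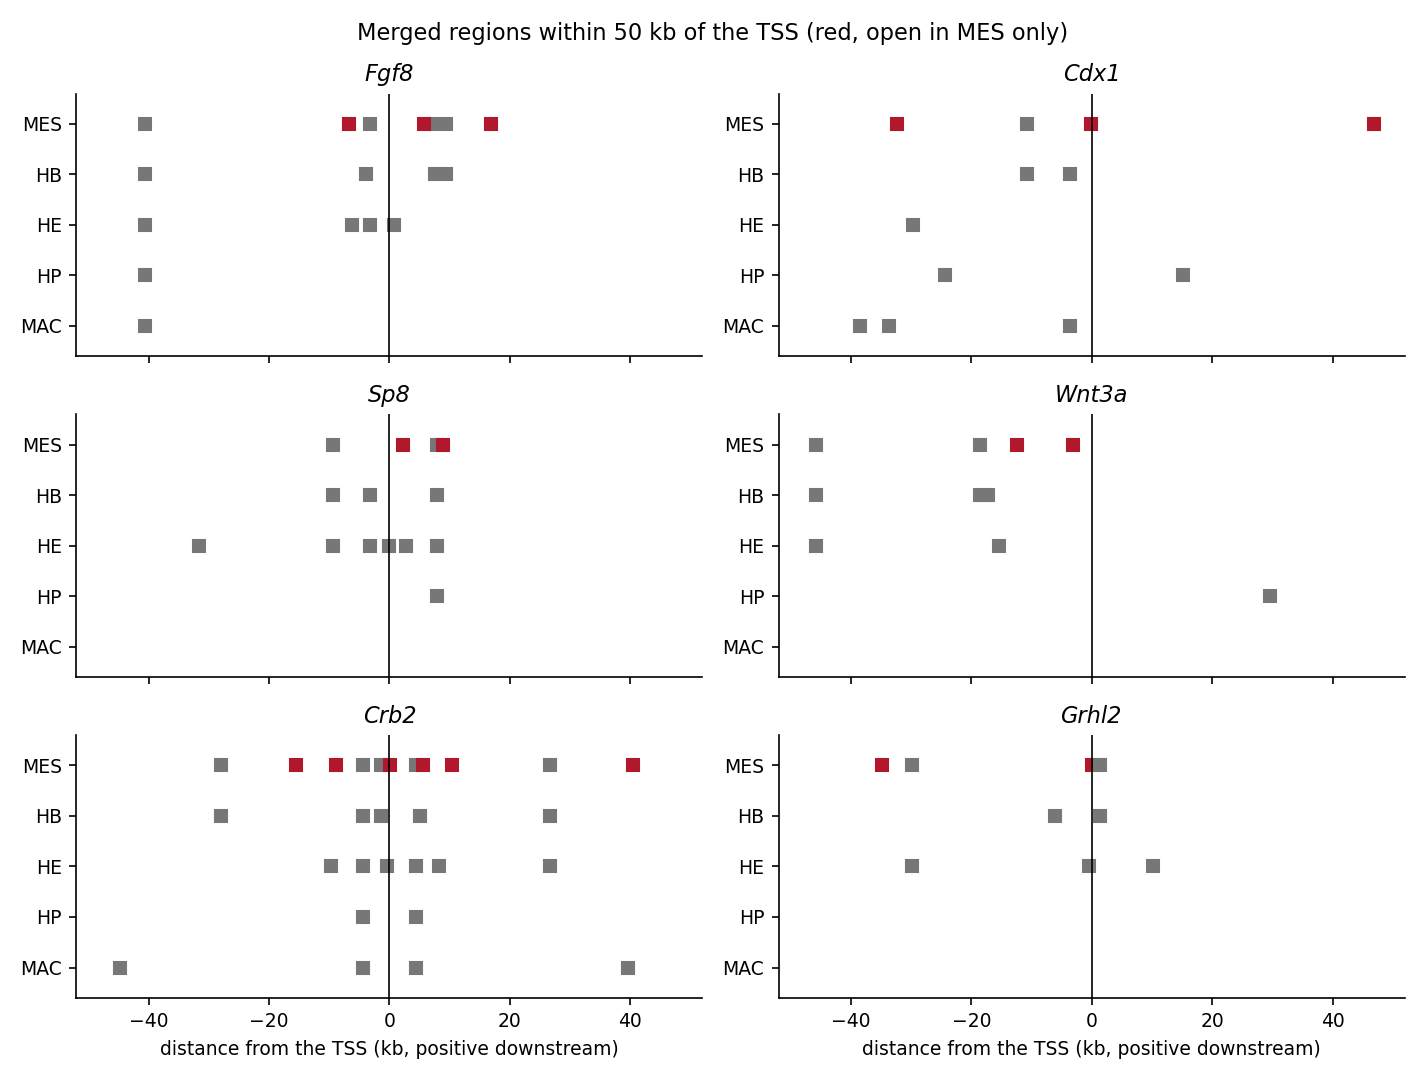
Merged regions within 50 kb of the TSS of Fgf8, Cdx1, Sp8 and Wnt3a, taken by the rule for named genes, and of Crb2 and Grhl2, added afterwards, by the distance of their middle from the TSS in kb (positive downstream), with 1 row per stage and red squares for regions open in MES only. The squares mark positions and are wider than the regions. Crb2 has 6 members among 17 regions, in front of and behind its TSS.

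Of 14 epithelial genes, 5 (35.7%) had a member within 1 kb of a TSS, against 1.64% of all genes. These were Cldn6 and Cldn7, claudins of tight junctions, Krt8, a keratin of simple epithelia, Esrp1, an epithelial splicing regulator, and Grhl2. Their sites were 500, 800, 400, 1000 and 600 bp wide, and the Grhl2 one was overlapped by an HE interval. Only Cldn6 had a promoter site in MES and no other list. Krt8 also had promoter sites in HB, HE and HP, Cldn7 and Grhl2 in HB and HE, and Esrp1 in HE. Cdh1, the gene of E-cadherin, had members 32.1 kb upstream and 7.85 kb downstream. The list as a whole had 6 nearest genes of 14 (42.9%) and 11 members with a median site width of 700 bp, and 10 of the 11 held CACCTG, where 52.6% of promoter members and 47.5% of the others did. This E-box was chosen from these same regions, so its count is a description, and binding of any factor was not tested. The 11 members are not independent, as 4 were nearest to Grhl2 and 2 each to Esrp1 and Cdh1. Of the stretches printed above, the Krt8 one is from its promoter member, while those of Esrp1 and Grhl2 are from members 2.79 and 97.1 kb upstream.

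A promoter site in MES and in no other list was found for 170 of 21000 genes, or 0.81%, and 161 of these had a member within 1 kb of a TSS. They were 46.8% of the 344 genes with such a member, while 44 of the 344 had promoter sites in all 5 lists. The 161 members at these promoters had a median site width of 400 bp (range 200 to 1200 bp). Of them 72 (44.7%) were CpG-rich and 102 (63.4%) held CACCTG. Named as examples after their values were seen, with no class of genes counted, these genes included Sfn, the gene of stratifin, with a site of 500 bp, Prom2, of prominin-2, with 300 bp, Ildr1, of a junction protein, with 500 bp, and the transcription factor genes Pou2f3 (900 bp), Foxb1 (400 bp), Neurog3 (700 bp) and Heyl (500 bp).

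The lists of other lineages are given against the same 9.92% of all genes, and differences between lists were not tested. In endoderm 3 of 13 genes (23.1%: Foxa2 with 2 members, Prdm1 and Nkx2-1), in neural ectoderm 3 of 18 (16.7%: Hes5, En1 and Msx1), in endothelium 2 of 15 (13.3%: Flt1 and Sox18), in blood 1 of 19 (5.26%: Lyl1) and among macrophage genes 5 of 19 (26.3%, among them Mrc1, Fcgr1, C1qa and Irf8) were nearest to a member, and none had one within 1 kb of a TSS. The member assigned to Lyl1 lay 23.0 kb away in an intron of Nfix. The genes nearest to members over 2 kb away mostly had a promoter site in MES (68.2% of 1715), and in HB (70.1%), HE (70.8%), HP (54.2%) and MAC (53.1%) as well. Over all genes these shares were 56.0, 57.6, 60.3, 49.0 and 48.6%, and for the genes nearest to MES and HB regions they were 69.3, 71.8, 72.4, 54.0 and 51.5%.

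The widest member site, of 1900 bp, lay 124.7 kb upstream of Med13l, its nearest gene. The next were sites of 1800 bp 38.0 kb downstream of the Fgd2 TSS and 591 bp downstream of that of Cpne9, and 1 of 1600 bp 35.6 kb from the Ccr1 TSS. Sites of 1500 bp lay 17.4 kb from the St6galnac1 TSS, 180 bp from the Fbxl14 TSS and, in an intron of Unc13a, 22.8 kb from the Colgalt1 TSS. Sites of 1400 bp lay in introns of Nfasc, Plekhg3 and Trp73. Intervals of other stages overlapped all of them except those at Nfasc, a neuronal adhesion gene, and Trp73, the gene of p73. The Cpne9 and Fbxl14 members lay within 1 kb of a TSS whose gene had promoter sites in other lists too.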

How the data were processed

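DNaseI-seq of 5 stages was analysed, with 1 deposited list of sites per stage. According to the study's methods, the authors trimmed reads with CutAdapt, aligned them to mm10 (GRCm38) with Bowtie, discarded duplicates (Picard) and then ran DFilter, which works in 100 bp bins, to call sites. Versions are not given in the sources used here. The deposited columns used are the start and end of each site in bp (unit: other), 135173 sites in all, with no score or read count. Depth and its precision can therefore not be read from the lists. The study reports totals of aligned reads for its experiments, which were not used here.

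Sites were set to 500 bp windows and chained at an overlap of 25% of the window with Python 3.11.15 and NumPy 2.4.6. This code was tested on simulated data. TSS came from the 25999 starts of curated mRNAs of 21000 genes in RefSeq GRCm38.p6. Shares carry 95% Wilson intervals and differences Newcombe intervals. No p-value was computed, since a stage has 1 list. Motifs were searched as exact matches, and sequences of 8 bases ranked if in at least 1% of members. The members, gene lists and motifs were chosen with earlier results of these data known. The genes named are the 10 nearest to most members, list genes with a member within 1 kb of a TSS, the nearest genes of the 10 widest sites, and genes of the pluripotency, epiblast, streak and Nodal/BMP lists with at least 2 members. The loci mapped are the 4 of these lists with most members within 50 kb, ties going to the shorter summed distance from the TSS (genes tied with Sp8 and Wnt3a at 2 members were left out by it). Others are named as members of a list or said to be chosen after their values were seen. Other overlaps, site selections, TSS sets, spans and CpG limits were tried.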

Additional observations from a re-analysis of the deposited data

How the results depend on the processing

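The number of members was 2823, and 3139 with an overlap of at least 250 bp, 2673 with 1 bp, 2482 with deposited intervals in place of windows, 2771 with each list cut to its 17734 widest sites, the number in the shortest list, 2476 without members overlapped by an interval of another stage, and 680 with only sites no narrower than their list's median. The promoter share, 16.2%, became 18.4% at 250 bp, 11.7% with deposited intervals, 27.5% with sites no narrower than the median, 18.9% with the widest sites, 11.6% without overlapped members, 24.2% with the TSS of all transcripts and 12.3% within 1 kb. The CpG-rich share, 11.2%, became 13.1, 8.26, 23.4, 14.9 and 8.12% under the first 5 of these in that order and 9.03% at a GC share of 0.55 and a ratio of 0.65. In the central 200 bp the shares were 2.96% for the octamer, 1.23% for the SOX-OCT composite, 2.11% for T-box, 5.32% for CTCF, 9.51% for TEAD and 7.01% for GATA. Beyond 20 kb the octamer share was 6.81%, against 2.76% of the other regions. With sites no narrower than the median the CTCF share was 4.26% and the GATA share 15.0%, and with the widest sites the GATA share was 16.02%. Members stayed below the other regions in the promoter, CpG-rich and GATA shares and above them in the octamer, SOX-OCT, T-box and CTCF shares under all settings run, as was the TEAD share, whose difference of 0.945 points has an interval that includes 0 (-0.564 to 2.56). No paired analysis was possible because each stage has 1 list, and leaving out replicates was not possible either. The lists hold no read counts and the depth reported by the study was not used, so how many sites a deeper library would add was not tested.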

Other observations

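Octamer and SOX-OCT composite were both present in 10 of 2367 members over 2 kb from a TSS (0.422%, not counted in other regions), named here after their values were seen. They included members near Tcf7, a LEF/TCF factor (3.60 kb upstream, site of 600 bp), Cldn16, a claudin (15.4 kb upstream, 600 bp), and Tshz3, a zinc finger factor (7.34 kb upstream, 600 bp), and the widest of the 10 had a site of 700 bp. No interval of another stage overlapped any of the 10, which also held for 87.7% of all members. Edar, the gene of the ectodysplasin receptor, had a promoter site in MES only, 200 bp wide, and an octamer in the 500 bp around its middle.

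Chromosome 8 held 275 members (9.74%, 8.70 to 10.9%), against 7.36% of the regions that MES shared with another stage and 7.34% of all regions. It was picked from all chromosomes after their values were seen.

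The width of the MES site also went with other properties of the members. Those with a site of 700 bp or more were promoters in 22.0% (18.1 to 26.6%), CpG-rich in 20.1% (16.3 to 24.5%) and overlapped by an interval of another stage in 27.0% (22.7 to 31.8%). With sites of up to 300 bp these shares were 15.2% (13.0 to 17.6%), 8.68% (7.02 to 10.7%) and 9.56% (7.82 to 11.6%). For the E-box CACCTG (51.9%, 46.1 to 57.7%, against 46.4%, 42.9 to 49.9%) and the octamer (5.65%, 3.51 to 8.99%, against 4.66%, 3.39 to 6.39%) the intervals of both width classes overlapped, and the octamer share was highest, at 6.40%, in sites of 400 to 600 bp.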
